A study of Homo sapiens with 9 samples.

Results

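A set of 130 antisense long noncoding RNAs was examined in MDA-MB-231 cells treated with YM-155 or left untreated. They are the genes whose single symbol ends in -AS and a digit and whose mean log2 signal over the 9 arrays was at least 4, out of 745 antisense genes and 22109 genes in all on the arrays. MDA-MB-231 is a human breast cancer line with mesenchymal features, derived from a pleural effusion, and YM-155 (sepantronium bromide) is a small molecule described as a suppressant of survivin, the product of BIRC5. RNA was measured on 3 arrays in each of 3 groups. The 20 h group received 14.6 ng/ml of YM-155, which the labels give as the LC50. The 8 h group received stepwise additions up to a total of 83 ng/ml and was collected while the cells still looked intact. The untreated control group received no drug, and the labels give it neither a vehicle nor a time. The drug was dissolved in DMSO and diluted in HBSS. Dose and time changed together between both treated groups, so their parts in any difference cannot be told apart. Nothing in the labels says that the 3 arrays of a group came from separate cultures, so the p-values measure the spread between these arrays, which may be technical.

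A natural antisense RNA is transcribed from the strand opposite to a sense gene, after which it is named. Many start at the sense gene's own promoter and run the other way, others start inside the gene or beyond its end and run back into it. Such RNAs are usually less abundant than messenger RNAs and often stay in the nucleus, where the RNA exosome degrades many of them. For a few, effects on the sense gene in the same cell are known, but most have no settled function.

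The members were selected on the mean signal over the 9 arrays alone, so that level is given here as a description. All values are log2 RMA signals, an arbitrary scale on which a difference of 1 is a doubling of signal, and levels of different probe sets are not set against each other as amounts of RNA. Of the 745 antisense genes, 17.4% reached the level of 4, against 48.5% of all genes. The members had a median of 4.63, the 615 antisense genes left out one of 2.64, and all genes one of 3.89. Of the members, 42 reached 5, 12 reached 6 and 4 reached 7, namely HMGA2-AS1 (7.48), HNRNPU-AS1, AFAP1-AS1 and HIF1A-AS2. Just inside the limit lay PAN3-AS1 (4.002), ATP2B1-AS1 (4.009) and BAALC-AS1 (4.013), and just outside it RNF213-AS1 (3.993), ADGRL1-AS1 (3.978) and ZSWIM8-AS1 (3.978). In 108 members the mean of each of the 3 groups was at least 4. The other 22 passed through their brighter groups, so a difference between groups is partly built into them. Among those described below, these are ENO1-AS1, RASAL2-AS1, ATP2B1-AS1, BAALC-AS1, MMP25-AS1, DNMBP-AS1 and ACTA2-AS1. A sense gene was measured for 120 members and had a median level of 5.77. The sense gene reached 4 in 88 pairs and lay below 4 in 32.

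The members differ in how they lie to the sense gene. RefSeq (GRCh38.p14) placed 97 of them with their sense gene, and 39 (40.2%) were head-to-head, with the antisense start upstream of the sense start or at most 2000 bases inside it. In 29 of these the starts lay within 1000 bases of each other. A further 29 members (29.9%) started inside the sense gene, 28 (28.9%) started beyond its end, and FAM131B-AS2 was listed on the same strand as FAM131B. The gene bodies overlapped in 21 of the 39 head-to-head members and in 23 of the 28 that started beyond the end. FGD5-AS1, SLC25A25-AS1 and CCDC18-AS1, described below, started beyond the end without such an overlap. Of the placed antisense genes below the level of 4, 34.6% were head-to-head, 50.4% internal and 15.0% beyond the end.

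The start regions of 5 head-to-head members are shown. They were chosen from the head-to-head members named for a large called change, as those with starts at most 350 bases apart. The short distance was therefore a condition of the choice, not a result. They also gave the 5 largest called rises at 20 h among the members that start upstream of the sense start. Each is 250 bases before and 50 bases after the antisense start, read 5′ to 3′ on the antisense strand, from RefSeq on GRCh38.p14. Capitals mark the bases from the sense start to the antisense start. ENO1-AS1 lies at chr1:8878585-8878884 (plus strand), with the starts 149 bases apart. KMT2E-AS1 lies at chr7:105014092-105014391 (minus strand), with the starts 64 bases apart. RASAL2-AS1 lies at chr1:178093944-178094243 (minus strand), with its start 111 bases from the outermost RASAL2 start. ZNF674-AS1 lies at chrX:46545240-46545539 (plus strand), with the starts 69 bases apart. ZNF143-AS1 lies at chr11:9460649-9460948 (minus strand), and here the sense start is 314 bases away and outside the window, so the capitals run from the window's first base.
ENO1-AS1: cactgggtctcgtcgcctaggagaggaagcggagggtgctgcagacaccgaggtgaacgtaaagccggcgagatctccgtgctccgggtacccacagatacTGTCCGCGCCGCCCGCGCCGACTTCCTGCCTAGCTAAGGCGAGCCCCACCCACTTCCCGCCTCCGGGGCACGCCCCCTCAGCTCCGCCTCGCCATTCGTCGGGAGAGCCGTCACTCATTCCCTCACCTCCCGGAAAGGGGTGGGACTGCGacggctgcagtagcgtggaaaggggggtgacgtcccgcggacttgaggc
KMT2E-AS1: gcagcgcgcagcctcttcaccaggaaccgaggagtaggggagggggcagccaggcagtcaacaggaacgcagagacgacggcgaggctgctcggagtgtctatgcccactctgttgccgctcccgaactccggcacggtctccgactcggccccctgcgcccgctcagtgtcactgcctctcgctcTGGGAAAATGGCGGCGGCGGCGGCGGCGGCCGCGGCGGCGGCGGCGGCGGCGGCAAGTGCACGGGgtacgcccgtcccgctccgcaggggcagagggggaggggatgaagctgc
RASAL2-AS1: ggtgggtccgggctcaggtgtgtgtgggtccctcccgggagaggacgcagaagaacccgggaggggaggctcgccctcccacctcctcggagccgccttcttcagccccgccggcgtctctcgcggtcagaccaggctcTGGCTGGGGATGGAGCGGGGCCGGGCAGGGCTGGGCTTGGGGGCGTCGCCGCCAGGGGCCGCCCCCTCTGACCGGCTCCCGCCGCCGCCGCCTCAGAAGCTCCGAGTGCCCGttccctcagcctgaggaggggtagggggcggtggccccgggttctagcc
ZNF674-AS1: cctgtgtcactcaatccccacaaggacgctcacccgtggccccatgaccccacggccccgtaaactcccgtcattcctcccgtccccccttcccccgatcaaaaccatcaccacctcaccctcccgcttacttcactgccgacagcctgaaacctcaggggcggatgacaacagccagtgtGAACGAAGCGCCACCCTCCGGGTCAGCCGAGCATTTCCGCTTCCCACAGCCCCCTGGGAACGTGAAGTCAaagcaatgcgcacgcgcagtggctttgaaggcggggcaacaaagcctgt
ZNF143-AS1: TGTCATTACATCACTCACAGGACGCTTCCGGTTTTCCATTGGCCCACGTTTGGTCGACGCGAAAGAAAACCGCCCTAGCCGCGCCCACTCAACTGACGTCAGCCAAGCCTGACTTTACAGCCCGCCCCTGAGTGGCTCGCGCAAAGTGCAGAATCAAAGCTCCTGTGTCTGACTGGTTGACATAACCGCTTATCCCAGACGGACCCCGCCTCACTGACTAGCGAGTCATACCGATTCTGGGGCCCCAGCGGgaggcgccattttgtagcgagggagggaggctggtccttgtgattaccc

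Windows of the same length were found for 107 members. For each gene the first window listed was taken, which in a gene with several starts need not be at the outermost start. The median ratio of observed to expected CpG was 0.659 in the members' windows and 0.77 in those of the 39 head-to-head members, against 0.43 in 457 windows of antisense genes below 4 and 0.58 in all 27305 windows. The median share of G and C was 62.7% in the members, 68.0% in the head-to-head members, 56.3% in the antisense genes below 4 and 58.3% in all windows. The GC box GGGCGG, searched on both strands, was present in 49.5% of the members' windows and 61.5% of the head-to-head ones, against 34.6% below 4 and 44.6% in all. The TATA box TATAAA was present in 6.54% of the members' windows, against 10.5% below 4 and 12.0% in all. CCAAT was present in 30.8%, 33.9% and 35.7% of the same sets. The AP-1 element TGANTCA was present in 6.54%, 10.5% and 7.76%, and the cyclic AMP response element TGACGTCA in 3.74%, 1.97% and 1.98%. None of these motifs contains another, and a match describes the letters only.

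The cells matched their label in part. Of 9 mesenchymal markers, 8 reached 4 (VIM 8.51, AXL 10.43, and SPARC at 3.28 below it). Of 9 luminal markers, 6 reached 4, among them KRT19 at 7.78, while ESR1 (2.96), PGR (2.01) and FOXA1 (2.45) did not. No marker of leukocytes (4 measured) or fibroblasts (4 measured) reached 4, and 1 of 2 endothelial ones did. Control array 3 stood apart: its log2 values, taken over the 11055 genes brighter than the median, differed from those of the other controls with an SD of 0.312 and 0.313, against 0.187 between controls 1 and 2. Arrays 1 and 2 of the 8 h group were the closest pair, with an SD of 0.147. Within groups, the median SD of a member was 0.137 at 20 h, 0.103 at 8 h and 0.136 in untreated cells. RMA gave the same value to 2 decimals on 3 or more arrays for 34 members and on 5 or more for 4 members, and the SDs include these ties.

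At 20 h, 24 of the 130 antisense RNAs were higher and 29 lower than in untreated cells (limma, adjusted p under 0.05 over all genes). These 53 calls are 40.8% of the members, against 30.3% of all genes and 51.7% of genes with a mean of at least 4. Higher calls made up 18.5% of the members, against 13.1% of all genes and 20.1% of genes at that level, and lower calls 22.3%, against 17.2% and 31.6%. The median log2 change was -0.0098 in the members and 0.0284 in all genes. Called rises ran between 0.31 and 1.44 and called falls between -0.28 and -1.93, and 5 rises and 5 falls reached 2-fold. Of these, the rises of ATP2B1-AS1, ENO1-AS1 and RASAL2-AS1 and the fall of ACTA2-AS1 came from members with a group mean below 4. In such members a difference is partly built in by the selection. In 52 of the 53 called members the 3 arrays of one group lay beyond the 3 of the other. This share was not computed for all genes, and it adds no support to the calls. Among the 108 members with each group mean at 4 or more, 18 rose and 25 fell. Without control array 3, 26 rose and 26 fell, and repeated quantile normalization gave 29 rises and 24 falls, so which direction held more calls depended on the setting.

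At 8 h, 14 members were higher and 7 lower than in untreated cells. These 21 calls are 16.2% of the members, against 12.2% of all genes and 22.2% of genes with a mean of at least 4. Higher calls made up 10.8%, against 5.93% of all genes and 10.9% of genes at that level, and lower calls 5.38%, against 6.28% and 11.3%. Called rises ran between 0.46 and 1.79, called falls between -0.36 and -1.10, and 4 rises and 1 fall reached 2-fold. Among these rises was ENO1-AS1, whose control mean lay below 4. Without control array 3 the counts were again 14 and 7, without control array 2 they were 10 and 3 (13 calls), and with arrays 1 and 2 of the 8 h group counted as 1 sample they were 10 and 4. When quantile normalization was repeated, 16 rose and 4 fell. Among the 108 members with each group mean at 4 or more, 12 rose and 5 fell. The 8 h and 20 h comparisons share the 3 untreated arrays, so their calls are not independent of each other. No member was called in opposite directions in them.

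Between both treated groups, 6 members were higher and 23 lower at 20 h than at 8 h. These 29 calls are 22.3% of the members, against 22.6% of all genes and 38.7% of genes with a mean of at least 4. Higher calls were 4.62% of the members, against 8.95% of all genes and 13.4% of genes at that level, and lower calls 17.7%, against 13.6% and 25.3%. Among the 108 members with each group mean at 4 or more, 3 were higher and 20 lower. ATP2B1-AS1 and MMP25-AS1 are among the higher calls that this restriction leaves out. Over all members, repeated quantile normalization gave 11 higher and 19 lower, so the split also depended on the scaling.

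**Figure D1:**
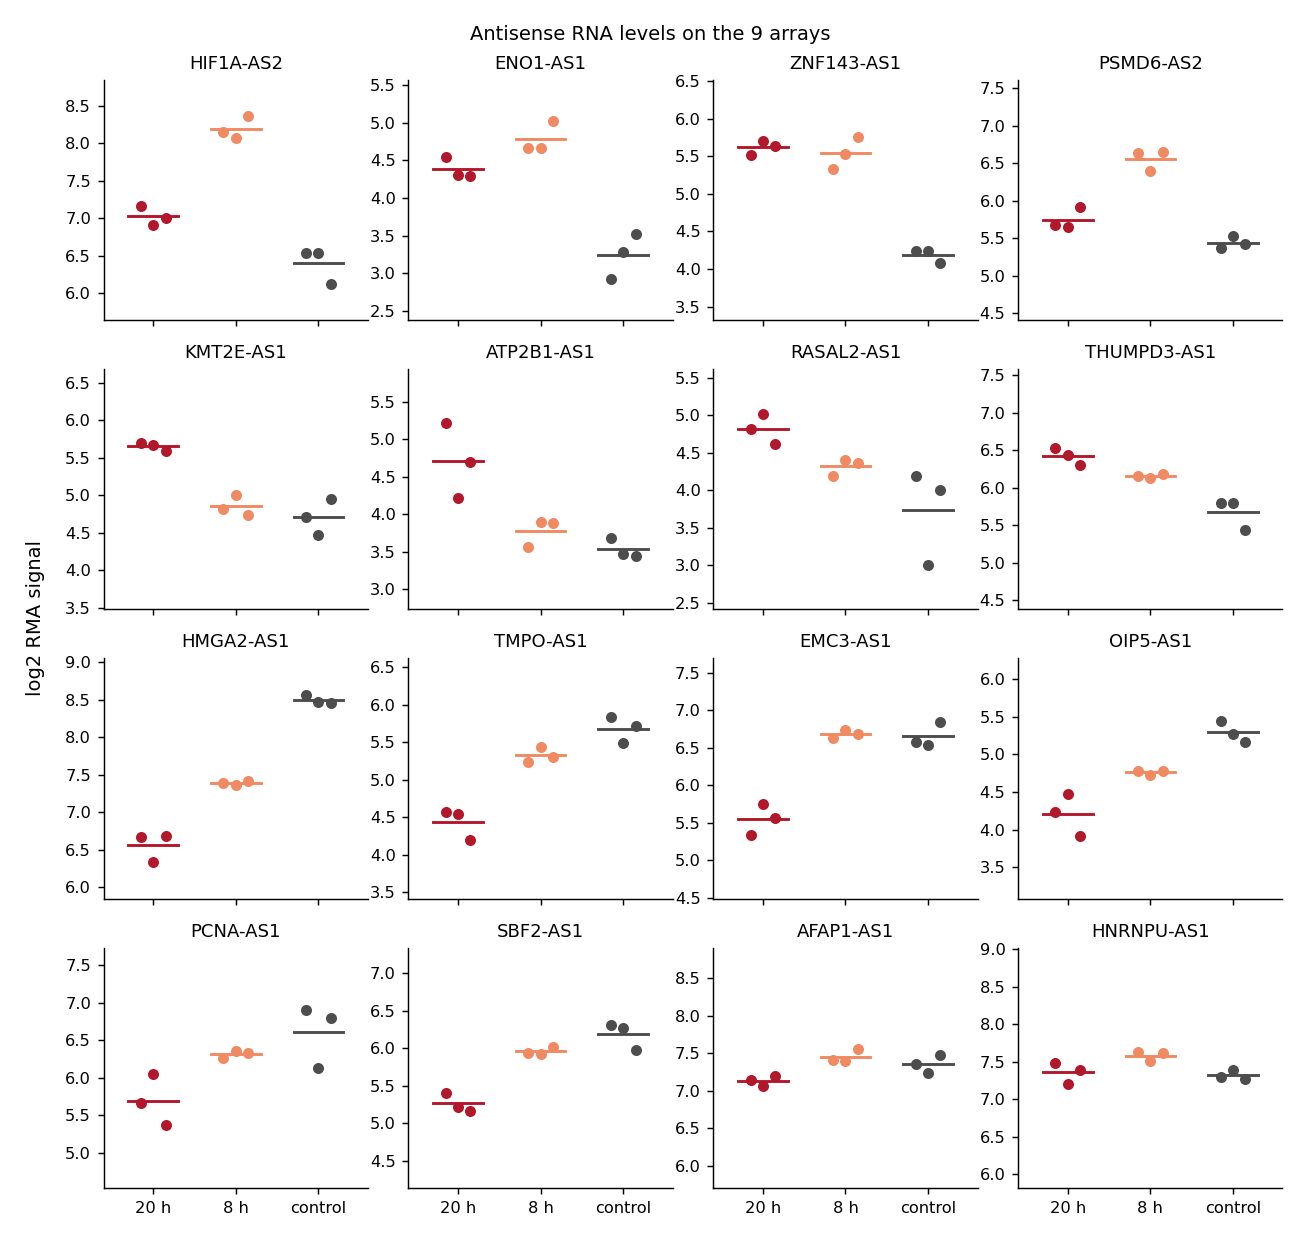
Log2 RMA signal of 16 antisense RNAs on each array (vertical axis; each panel spans the same range), with the arrays of the 20 h, 8 h and control groups from left to right; points are arrays and lines are group means. HIF1A-AS2 and PSMD6-AS2 were highest at 8 h, ENO1-AS1 and ZNF143-AS1 were high in both treated groups, and HMGA2-AS1, TMPO-AS1 and OIP5-AS1 were lowest at 20 h.

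The largest rise at 8 h was that of HIF1A-AS2, the antisense RNA of HIF1A, the oxygen-regulated subunit of the hypoxia-inducible transcription factor. In RefSeq it starts beyond the 3′ end of HIF1A and runs back over it. Its signal was 7.17, 6.91 and 7.01 at 20 h, 8.15, 8.07 and 8.36 at 8 h and 6.54, 6.54 and 6.13 in untreated cells. The 3 groups did not overlap, and the 8 h arrays were the highest. The log2 change was 1.79 ± 0.13 (SE, adjusted p = 3.31e-05) at 8 h, a 3.46-fold rise, 0.63 ± 0.13 (SE, adjusted p = 0.00406) at 20 h and -1.16 ± 0.13 (SE, adjusted p = 0.000188) between 20 h and 8 h. HIF1A itself was 10.22, 10.15 and 10.06 at 20 h, 10.34, 10.33 and 10.52 at 8 h and 10.36, 10.36 and 10.22 in untreated cells, and did not pass the test in either comparison with control (log2 change -0.17 ± 0.09, SE, adjusted p = 0.175 at 20 h and 0.08 ± 0.09, SE, adjusted p = 0.655 at 8 h). The antisense change exceeded the sense change by 0.80 ± 0.13 (SE, adjusted p = 0.00029) at 20 h and by 1.71 ± 0.13 (SE, adjusted p = 2.72e-07) at 8 h.

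PSMD6-AS2 was also highest at 8 h. Its sense gene PSMD6 encodes a subunit of the regulatory particle of the proteasome. PSMD6-AS2 was 5.68, 5.65 and 5.91 at 20 h, 6.63, 6.39 and 6.65 at 8 h and 5.37, 5.53 and 5.42 in untreated cells, and the 8 h arrays lay above all others. It rose by 1.12 ± 0.10 (SE, adjusted p = 0.000122) on the log2 scale at 8 h and was lower at 20 h than at 8 h, with a log2 change of -0.81 ± 0.10 (SE, adjusted p = 0.000406). Its 20 h change of 0.31 ± 0.10 (SE, adjusted p = 0.0469) against untreated cells lost its call under 12 of 19 alternative settings, among them the omission of any single control array. PSMD6 did not pass the test in any comparison, with a log2 change of 0.01 ± 0.09 (SE, adjusted p = 0.955) at 20 h and 0.15 ± 0.09 (SE, adjusted p = 0.397) at 8 h.

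ENO1-AS1 and ZNF143-AS1, both head-to-head RNAs whose start regions are shown above, rose in both treated groups. ENO1 encodes the glycolytic enzyme enolase, and ZNF143 a zinc-finger transcription factor. ENO1-AS1 was 4.54, 4.31 and 4.29 at 20 h, 4.66, 4.67 and 5.03 at 8 h and 2.92, 3.28 and 3.52 in untreated cells. Its control arrays lay under the level of 4 and the treated arrays above it. The log2 change was 1.14 ± 0.16 (SE, adjusted p = 0.000307) at 20 h and 1.55 ± 0.16 (SE, adjusted p = 0.000199) at 8 h. ENO1 did not pass the test against control in either group (log2 change -0.17 ± 0.10, SE, adjusted p = 0.234 at 20 h, 0.31 ± 0.10, SE, adjusted p = 0.0697 at 8 h), and was lower at 20 h than at 8 h, with a log2 change of -0.48 ± 0.10 (SE, adjusted p = 0.00566). ZNF143-AS1 was 5.52, 5.71 and 5.64 at 20 h, 5.33, 5.53 and 5.76 at 8 h and 4.24, 4.24 and 4.08 in untreated cells, and the treated arrays lay more than 1 log2 unit above the untreated ones. ZNF143-AS1 rose by 1.44 ± 0.11 (SE, adjusted p = 7.34e-06) at 20 h, the largest rise of a member in that comparison, and 1.35 ± 0.11 (SE, adjusted p = 6.62e-05) at 8 h. ZNF143 did not pass the test (0.22 ± 0.07, SE, adjusted p = 0.0522 at 20 h, 0.02 ± 0.07, SE, adjusted p = 0.928 at 8 h).

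Further members rose in both treated groups. IDI2-AS1 starts inside IDI2, an isomerase gene of the isoprenoid pathway, and was 5.45, 5.35 and 5.01 at 20 h, 4.97, 4.97 and 5.52 at 8 h and 4.09, 4.08 and 4.60 in untreated cells. IDI2-AS1 rose by 1.02 ± 0.19 (SE, adjusted p = 0.00225) at 20 h and 0.90 ± 0.19 (SE, adjusted p = 0.0126) at 8 h, the second of which lost its call when control array 1 or control array 2 was left out (highest adjusted p 0.0517). ZNF674-AS1, which shares a start region with the zinc-finger gene ZNF674, was 5.50, 5.11 and 5.27 at 20 h, 5.08, 5.17 and 5.31 at 8 h and 4.58, 4.58 and 4.42 in untreated cells, and no treated array overlapped an untreated one. It rose by 0.77 ± 0.11 (SE, adjusted p = 0.000449) at 20 h and 0.66 ± 0.11 (SE, adjusted p = 0.00401) at 8 h. ARHGAP5-AS1 lies head-to-head with ARHGAP5 and was 6.55, 6.46 and 6.35 at 20 h, 6.57, 6.55 and 6.65 at 8 h and 5.89, 5.88 and 6.02 in untreated cells. It rose by 0.52 ± 0.08 (SE, adjusted p = 0.000786) at 20 h and 0.66 ± 0.08 (SE, adjusted p = 0.000764) at 8 h. BAALC-AS1 (log2 change 0.94 ± 0.10 at 20 h and 0.74 ± 0.10 at 8 h, SE) and FAM131B-AS2 (0.87 ± 0.11 and 0.55 ± 0.11) passed the test in both comparisons too, with sense genes below 4. EPB41L4A-AS1 rose by 0.68 ± 0.12 (SE, adjusted p = 0.00113) at 20 h, and its call at 8 h (0.46 ± 0.12, SE, adjusted p = 0.0278) ended when any single array of the 8 h or the control group was left out.

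A second group of members was higher at 20 h than at 8 h. KMT2E-AS1 shares its start region with KMT2E, which encodes a chromatin regulator related to the trithorax methyltransferases. It was 5.69, 5.67 and 5.59 at 20 h, 4.81, 5.0 and 4.74 at 8 h and 4.71, 4.47 and 4.95 in untreated cells, with the 20 h arrays above all others and the 8 h and control arrays overlapping. Its log2 change was 0.94 ± 0.12 (SE, adjusted p = 0.000204) against control at 20 h and 0.80 ± 0.12 (SE, adjusted p = 0.00119) against 8 h. At 8 h KMT2E-AS1 did not pass the test (0.14 ± 0.12, SE, adjusted p = 0.559). KMT2E was 8.27, 8.28 and 8.21 at 20 h, 8.64, 8.60 and 8.86 at 8 h and 7.93, 7.94 and 8.10 in untreated cells, and its highest arrays were those of the 8 h group. KMT2E rose by 0.71 ± 0.09 (SE, adjusted p = 0.000833) at 8 h and was lower at 20 h than at 8 h, with a log2 change of -0.45 ± 0.09 (SE, adjusted p = 0.00566), the opposite direction to its antisense RNA. The difference between both changes was 1.25 ± 0.15 (SE, adjusted p = 7.76e-05).

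ATP2B1-AS1 is the antisense RNA of ATP2B1, a calcium pump of the plasma membrane. It was 5.22, 4.22 and 4.70 at 20 h, 3.56, 3.90 and 3.88 at 8 h and 3.68, 3.47 and 3.45 in untreated cells, below 4 on every array outside the 20 h group and widely spread within it. ATP2B1-AS1 rose by 1.18 ± 0.21 (SE, adjusted p = 0.00166) against control and 0.93 ± 0.21 (SE, adjusted p = 0.00976) against 8 h. MAST4-AS1, which starts inside the kinase gene MAST4, was 4.91, 4.86 and 4.92 at 20 h, 4.33, 4.40 and 4.37 at 8 h and 4.25, 4.29 and 4.04 in untreated cells. It rose by 0.70 ± 0.08 (SE, adjusted p = 0.000118) against control and 0.53 ± 0.08 (SE, adjusted p = 0.00142) against 8 h, and its 3 arrays at 20 h stood above the rest. NPPA-AS1 and MMP25-AS1 were also higher at 20 h than at 8 h (log2 change 0.65 ± 0.15 and 0.77 ± 0.22, SE), but the MMP25-AS1 call ended when array 1 or 3 of the 20 h group or array 1 or 2 of the 8 h group was left out, and both calls against control ended without any single array of the 20 h group. The MMP25-AS1 change at 20 h against control was 0.66 with its brightest probe set and 0.34 with the mean of its 3 probe sets.

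RASAL2-AS1 was one of 4 antisense RNAs that rose together with the sense gene at 20 h. RASAL2 encodes a GTPase-activating protein for Ras. RASAL2-AS1 was 4.82, 5.02 and 4.62 at 20 h, 4.19, 4.40 and 4.37 at 8 h and 4.19, 3.01 and 4.01 in untreated cells, and control 2 lay below the other control arrays. It rose by 1.08 ± 0.26 (SE, adjusted p = 0.00838) at 20 h and by 0.72 (adjusted p = 0.0036) without control array 2, and it did not pass the test at 8 h (0.58 ± 0.26, SE, adjusted p = 0.198). RASAL2 was 9.33, 9.39 and 9.42 at 20 h, 8.98, 9.0 and 9.03 at 8 h and 8.05, 7.92 and 8.10 in untreated cells, without overlap between the 3 groups, and rose by 1.36 ± 0.08 (SE, adjusted p = 9.16e-07) at 20 h and 0.98 ± 0.08 (SE, adjusted p = 4.91e-05) at 8 h. The difference between both changes did not pass the test at 20 h (-0.27 ± 0.21, SE, adjusted p = 0.372) or 8 h (-0.40 ± 0.21, SE, adjusted p = 0.335). Without control array 2 the difference for RASAL2-AS1 passed in both comparisons, at -0.58 (adjusted p = 0.0159) at 20 h and -0.71 (adjusted p = 0.0146) at 8 h. The other 3 pairs with both RNAs higher at 20 h were MAST4-AS1 with MAST4, FRMD6-AS1 with FRMD6 and MMP25-AS1 with MMP25. RASAL2-AS1 and MMP25-AS1 each had a group mean below 4, so their rises are partly built in by the selection. FRMD6-AS1 is named only to complete this count, after its values were seen.

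HMGA2-AS1, read from the brighter of its 2 probe sets, had the highest signal of the members in untreated cells and the largest fall in both comparisons with control. HMGA2 encodes an architectural chromatin protein that is active in embryos and many tumours. HMGA2-AS1 was 6.67, 6.34 and 6.69 at 20 h, 7.39, 7.36 and 7.42 at 8 h and 8.56, 8.47 and 8.45 in untreated cells, without overlap between the 3 groups. Its log2 change was -1.93 ± 0.10 (SE, adjusted p = 5.44e-07) at 20 h, which is a 3.80-fold fall, -1.10 ± 0.10 (SE, adjusted p = 0.000104) at 8 h and -0.82 ± 0.10 (SE, adjusted p = 0.000287) between 20 h and 8 h. HMGA2 was 7.40, 7.12 and 6.98 at 20 h, 7.61, 7.62 and 7.69 at 8 h and 8.31, 8.37 and 8.16 in untreated cells and fell as well, with a log2 change of -1.11 ± 0.11 (SE, adjusted p = 3.40e-05) at 20 h and -0.64 ± 0.11 (SE, adjusted p = 0.00436) at 8 h. The antisense RNA fell by more than its sense gene at 20 h, with a difference of -0.81 ± 0.15 (SE, adjusted p = 0.000502). At 8 h the difference was -0.46 ± 0.15 (SE, adjusted p = 0.0615).

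TMPO-AS1, OIP5-AS1 and PCNA-AS1 are named after genes of dividing cells: TMPO encodes a lamina-associated polypeptide, OIP5 a subunit of the complex that prepares centromeres for new CENP-A, and PCNA the sliding clamp of DNA replication. TMPO-AS1 was 4.57, 4.54 and 4.20 at 20 h, 5.24, 5.44 and 5.30 at 8 h and 5.83, 5.49 and 5.71 in untreated cells, and the groups did not overlap. TMPO-AS1 fell by 1.24 ± 0.12 (SE, adjusted p = 3.18e-05) at 20 h and did not pass the test at 8 h (-0.35 ± 0.12, SE, adjusted p = 0.1). TMPO was 6.37, 6.38 and 6.32 at 20 h, 7.65, 7.63 and 7.66 at 8 h and 8.60, 8.53 and 8.43 in untreated cells and fell by more, with a log2 change of -2.16 ± 0.07 (SE, adjusted p = 7.73e-08) at 20 h and -0.87 ± 0.07 (SE, adjusted p = 7.50e-05) at 8 h. The antisense change lay 0.92 ± 0.14 (SE, adjusted p = 0.00018) above the sense change at 20 h.

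OIP5-AS1, whose mouse counterpart is known to bind the microRNA miR-7, was 4.23, 4.47 and 3.91 at 20 h, 4.78, 4.73 and 4.78 at 8 h and 5.45, 5.27 and 5.16 in untreated cells. Its groups did not overlap, the 20 h arrays being lowest. It fell by 1.09 ± 0.13 (SE, adjusted p = 0.000142) at 20 h, and the 8 h call (-0.53 ± 0.13, SE, adjusted p = 0.0289) ended when any single 8 h array or control array 1 or 2 was left out. OIP5 was 3.05, 2.76 and 2.56 at 20 h, 4.19, 4.18 and 4.19 at 8 h and 5.0, 5.19 and 5.09 in untreated cells, and fell in both groups, with a log2 change of -2.30 ± 0.12 (SE, adjusted p = 5.05e-07) at 20 h and -0.90 ± 0.12 (SE, adjusted p = 0.000909) at 8 h. The antisense change lay 1.21 ± 0.16 (SE, adjusted p = 3.77e-05) above the sense change at 20 h. PCNA-AS1 was 5.66, 6.05 and 5.37 at 20 h, 6.26, 6.36 and 6.33 at 8 h and 6.90, 6.13 and 6.80 in untreated cells, and control 2 lay below the 8 h arrays while the other controls lay above them. It fell by 0.92 ± 0.21 (SE, adjusted p = 0.00689) at 20 h. PCNA had a log2 change of -0.96 ± 0.09 (SE, adjusted p = 1.62e-05), and the difference between both changes was 0.05 ± 0.17 (SE, adjusted p = 0.879), which did not pass the test.

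Other antisense RNAs also fell at 20 h. EMC3-AS1, from within EMC3, a gene of the membrane protein insertion complex of the endoplasmic reticulum, was 5.34, 5.75 and 5.57 at 20 h, 6.63, 6.74 and 6.68 at 8 h and 6.58, 6.54 and 6.84 in untreated cells. The 20 h arrays lay below all others, and the 8 h and control arrays overlapped. Its log2 change was -1.10 ± 0.12 (SE, adjusted p = 5.64e-05) against control and -1.13 ± 0.12 (SE, adjusted p = 0.000119) against 8 h, while EMC3 had a log2 change of 0.15 ± 0.07 (SE, adjusted p = 0.149) against control and 0.07 ± 0.07 (SE, adjusted p = 0.566) against 8 h. SBF2-AS1 was 5.41, 5.22 and 5.17 at 20 h, 5.94, 5.92 and 6.02 at 8 h and 6.31, 6.27 and 5.98 in untreated cells and fell by 0.92 ± 0.11 (SE, adjusted p = 9.44e-05) at 20 h, beside a log2 change of -0.29 ± 0.07 (SE, adjusted p = 0.0109) for SBF2, which encodes a myotubularin-related protein. The difference between both changes was -0.63 ± 0.14 (SE, adjusted p = 0.00241). FGD5-AS1 was 6.16, 6.03 and 5.82 at 20 h, 6.60, 6.74 and 6.60 at 8 h and 6.90, 6.68 and 6.63 in untreated cells, and fell by 0.73 ± 0.11 (SE, adjusted p = 0.000539), while its sense gene FGD5 lay at 3.28 over the arrays. DNMBP-AS1 was 4.04, 3.96 and 3.96 at 20 h, 4.85, 4.54 and 4.58 at 8 h and 5.10, 4.80 and 4.54 in untreated cells and fell by 0.82 ± 0.14 (SE, adjusted p = 0.00101), beside a log2 change of -0.96 ± 0.11 (SE, adjusted p = 6.49e-05) for DNMBP. DNMBP encodes a scaffold protein that activates CDC42.

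ACTA2-AS1 and ATP6V0E2-AS1 fell in both treated groups. ACTA2-AS1 was 3.28, 3.67 and 3.53 at 20 h, 3.89, 4.07 and 4.0 at 8 h and 4.58, 4.59 and 4.54 in untreated cells, with the 20 h arrays lowest and no overlap between groups. The log2 change of ACTA2-AS1 was -1.08 ± 0.10 (SE, adjusted p = 2.59e-05) at 20 h and -0.59 ± 0.10 (SE, adjusted p = 0.00481) at 8 h. ACTA2, the smooth muscle actin gene, was not above 4 (2.55 over the arrays). ATP6V0E2-AS1 was 5.11, 5.04 and 4.97 at 20 h, 5.13, 5.22 and 4.78 at 8 h and 5.63, 5.72 and 5.95 in untreated cells, and the treated groups overlapped each other but not the control. Its log2 change was -0.73 ± 0.12 (SE, adjusted p = 0.00127) at 20 h and -0.73 ± 0.12 (SE, adjusted p = 0.00428) at 8 h. TTN-AS1 and ATF7-AS1 were lower at 20 h than at 8 h, with log2 changes of -0.68 ± 0.11 (SE, adjusted p = 0.00183) and -0.92 ± 0.12 (SE, adjusted p = 0.000528). ATF7-AS1 was 4.85, 5.09 and 4.84 at 20 h, 5.66, 5.80 and 6.09 at 8 h and 5.55, 5.31 and 5.45 in untreated cells, so that its 8 h arrays were the highest and its 20 h arrays the lowest.

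The brightest members did not all change. HNRNPU-AS1 was 7.48, 7.21 and 7.39 at 20 h, 7.63, 7.51 and 7.61 at 8 h and 7.30, 7.39 and 7.27 in untreated cells, and did not pass the test in any comparison. Its sense gene HNRNPU, which encodes a nuclear RNA-binding scaffold protein, had a log2 change of -0.37 ± 0.07 (SE, adjusted p = 0.00205) at 20 h. AFAP1-AS1 was 7.14, 7.06 and 7.19 at 20 h, 7.41, 7.40 and 7.55 at 8 h and 7.35, 7.24 and 7.47 in untreated cells, and did not pass the test against control (-0.22 ± 0.09, SE, adjusted p = 0.0891 at 20 h, 0.10 ± 0.09, SE, adjusted p = 0.584 at 8 h). Its lower value at 20 h than at 8 h (-0.32 ± 0.09, SE, adjusted p = 0.0261) lost the call when array 1 or 2 of the 20 h group or array 1 or 3 of the 8 h group was left out, and under repeated quantile normalization. PITPNA-AS1 was 6.32, 6.48 and 6.27 at 20 h, 6.32, 6.32 and 6.21 at 8 h and 6.29, 6.32 and 6.32 in untreated cells, with identical values on several arrays, and had a log2 change of 0.05 ± 0.08 (SE, adjusted p = 0.719) at 20 h. A value that missed the threshold does not show that the level was equal.

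**Figure D2:**
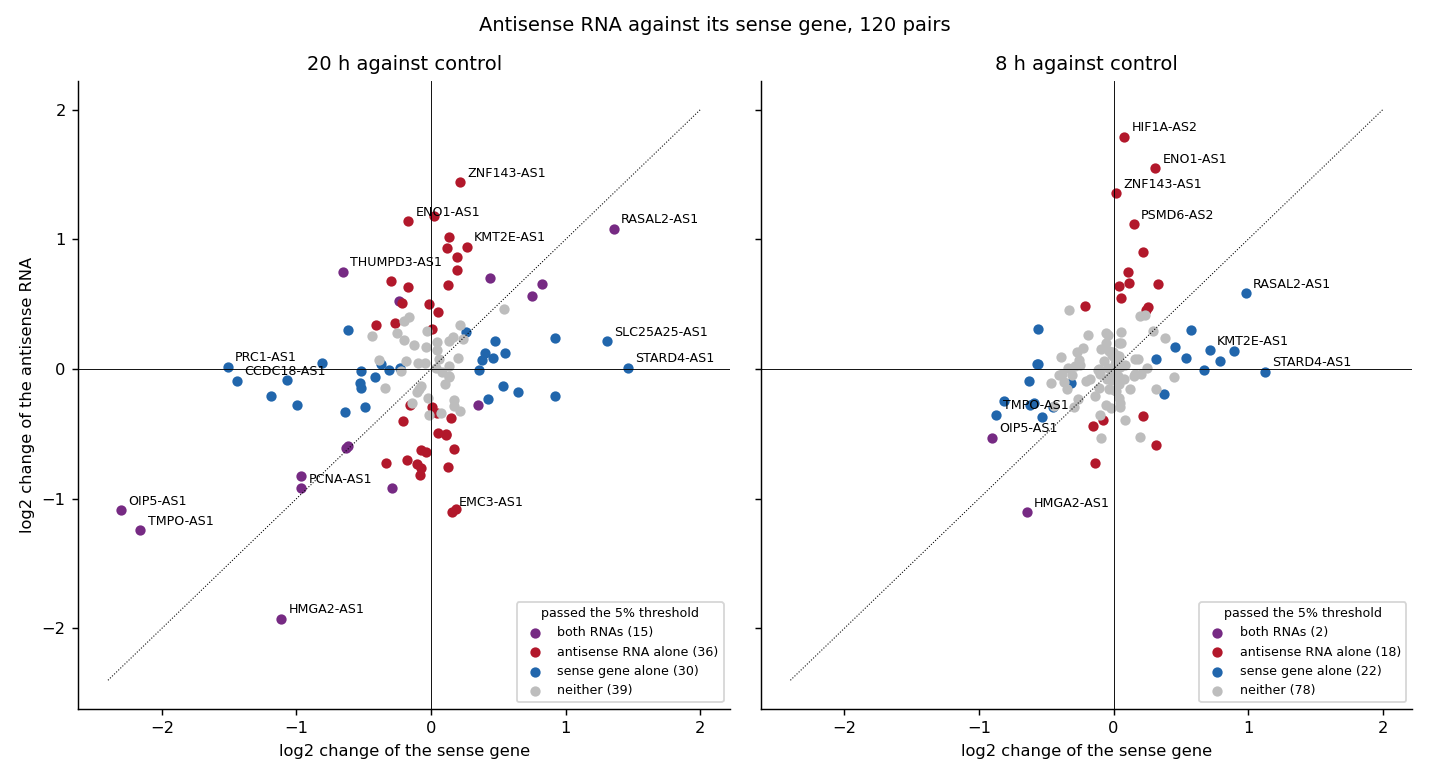
Log2 change of each antisense RNA (vertical axis) against that of its sense gene (horizontal axis) for 120 pairs, at 20 h (left) and 8 h (right) against control; colours show which RNA passed the 5% threshold and the dotted line marks equal change. Both RNAs passed in 15 pairs at 20 h and 2 at 8 h, and the antisense RNA alone in 36 and 18.

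Across the 120 pairs, the sense genes gave 19 rises and 26 falls at 20 h and 11 rises and 13 falls at 8 h, which are 45 and 24 calls, or 37.5% and 20.0% of the sense genes. The shares were 30.3% and 12.2% of all genes, and 51.7% and 22.2% of genes with a mean of at least 4. At 20 h both RNAs rose in 4 pairs and both fell in 8, and in 3 pairs they were called in opposite directions. The antisense RNA alone passed in 36 pairs, the sense gene alone in 30, and neither in 39. Of the 36 antisense RNAs, 15 had a sense gene below 4. At 8 h both fell in 2 pairs (HMGA2 and OIP5), the antisense RNA alone passed in 18, the sense gene alone in 22, and neither in 78. Passing in one RNA and not in the other does not show that the changes differ, which the test of the difference within each array addresses. Pearson's r between antisense and sense change across the 120 pairs was 0.372 at 20 h and 0.315 at 8 h, given as a description because both RNAs of a pair were read from the same 9 arrays.

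The change of the antisense RNA differed from that of the sense gene in 63 of 120 pairs at 20 h (34 higher, 29 lower), in 28 at 8 h (18 higher, 10 lower) and in 28 between 20 h and 8 h (12 higher, 16 lower). Over the 88 pairs whose sense gene had a mean of at least 4, these counts were 47, 22 and 23. In the other 32 pairs the sense gene had a low signal, so the difference may mostly repeat the antisense change. The reverse holds where the antisense signal was flat near 4, as at 20 h for STARD4-AS1 (mean 4.26) and PRC1-AS1 (4.23). There the difference may mostly repeat the sense change. Over all 684 antisense pairs on the array, whatever their level, such calls made up 32% at 20 h (19.2% higher, 12.9% lower), 8.77% at 8 h (4.68% higher, 4.09% lower) and 16.8% between 20 h and 8 h (11.1% higher, 5.7% lower). At 20 h the split was 26 higher and 28 lower over the 98 pairs whose antisense RNA had each group mean at 4 or more, and 13 and 14 over the 40 pairs with the antisense RNA at 5 or more. Without control array 3, 59 pairs passed at 20 h and 25 at 8 h, and without array 3 of the 8 h group 16 passed at 8 h (12 higher, 4 lower).

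The 3 pairs called in opposite directions at 20 h were those of THUMPD3, ARHGAP5 and KRT10. THUMPD3-AS1 was 6.53, 6.44 and 6.30 at 20 h, 6.15, 6.13 and 6.18 at 8 h and 5.79, 5.80 and 5.43 in untreated cells, without overlap between groups, and rose by 0.75 ± 0.11 (SE, adjusted p = 0.000449) at 20 h. THUMPD3, a gene of transfer RNA methylation, was 6.39, 6.23 and 6.16 at 20 h, 6.65, 6.65 and 6.80 at 8 h and 7.0, 7.10 and 6.65 in untreated cells, and fell by 0.66 ± 0.12 (SE, adjusted p = 0.00203). The difference between both changes was 1.41 ± 0.12 (SE, adjusted p = 1.50e-06) at 20 h, 0.70 ± 0.12 (SE, adjusted p = 0.00133) at 8 h and 0.71 ± 0.12 (SE, adjusted p = 0.000898) between 20 h and 8 h. THUMPD3-AS1's own call at 8 h (0.48 ± 0.11, SE, adjusted p = 0.0174) ended when any single 8 h array was left out. ARHGAP5 fell by 0.24 ± 0.07 (SE, adjusted p = 0.0374) at 20 h while ARHGAP5-AS1 rose, but the ARHGAP5 call ended under 9 of 19 alternatives. KRT10-AS1 fell by 0.28 ± 0.09 (SE, adjusted p = 0.0366) while the keratin gene KRT10, which lay below 4 on each array, rose by 0.35 ± 0.10 (SE, adjusted p = 0.0274). Repeated quantile normalization gave KRT10-AS1 a log2 change of -0.14 (adjusted p = 0.272). The KRT10-AS1 call ended under 8 of 19 alternatives and the KRT10 call under 6 of 18, including the omission of control array 3 for both.

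In several pairs the sense gene moved by more than 2-fold and the antisense RNA did not pass the test. STARD4 encodes a cholesterol transport protein. STARD4 was 8.41, 8.38 and 8.45 at 20 h, 7.98, 7.98 and 8.27 at 8 h and 7.11, 6.97 and 6.78 in untreated cells, and STARD4-AS1 was 4.28, 4.27 and 4.27 at 20 h, 4.27, 4.32 and 4.14 at 8 h and 4.27, 4.25 and 4.27 in untreated cells. STARD4 rose by 1.46 ± 0.11 (SE, adjusted p = 4.97e-06) at 20 h, and the change of STARD4-AS1 minus that of STARD4 was -1.45 ± 0.15 (SE, adjusted p = 4.97e-06). STARD4-AS1 gave 1 value to 2 decimals on 5 of the 9 arrays. SLC25A25, which encodes a mitochondrial carrier of ATP, rose by 1.31 ± 0.11 (SE, adjusted p = 1.14e-05), while SLC25A25-AS1, which was 5.53, 5.81 and 5.68 at 20 h, 5.52, 5.51 and 5.53 at 8 h and 5.39, 5.39 and 5.60 in untreated cells, had a log2 change of 0.21 ± 0.10 (SE, adjusted p = 0.127).

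In the pairs of PRC1 and CCDC18 the sense RNA fell at 20 h and the antisense RNA did not pass the test. PRC1, which bundles microtubules for cytokinesis, was 6.81, 6.78 and 6.53 at 20 h, 7.93, 7.92 and 7.83 at 8 h and 8.33, 8.29 and 8.04 in untreated cells, and PRC1-AS1 was 4.13, 4.25 and 3.90 at 20 h, 4.65, 4.31 and 4.62 at 8 h and 4.24, 4.20 and 3.78 in untreated cells. PRC1 fell by 1.51 ± 0.11 (SE, adjusted p = 3.43e-06), and the difference from PRC1-AS1 was 1.53 ± 0.14 (SE, adjusted p = 1.63e-06). CCDC18 fell by 1.45 ± 0.09 (SE, adjusted p = 1.75e-06), and the difference from CCDC18-AS1 (-0.09 ± 0.09, SE, adjusted p = 0.51) was 1.36 ± 0.13 (SE, adjusted p = 2.01e-06). TPT1, the gene of translationally controlled tumour protein, rose by 0.92 ± 0.09 (SE, adjusted p = 2.36e-05), beside 0.24 ± 0.10 (SE, adjusted p = 0.0962) for TPT1-AS1. SP2, a transcription factor of the Sp family, rose by 0.92 ± 0.20 (SE, adjusted p = 0.00466), beside -0.21 ± 0.10 (SE, adjusted p = 0.139) for SP2-AS1.

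**Figure D3:**
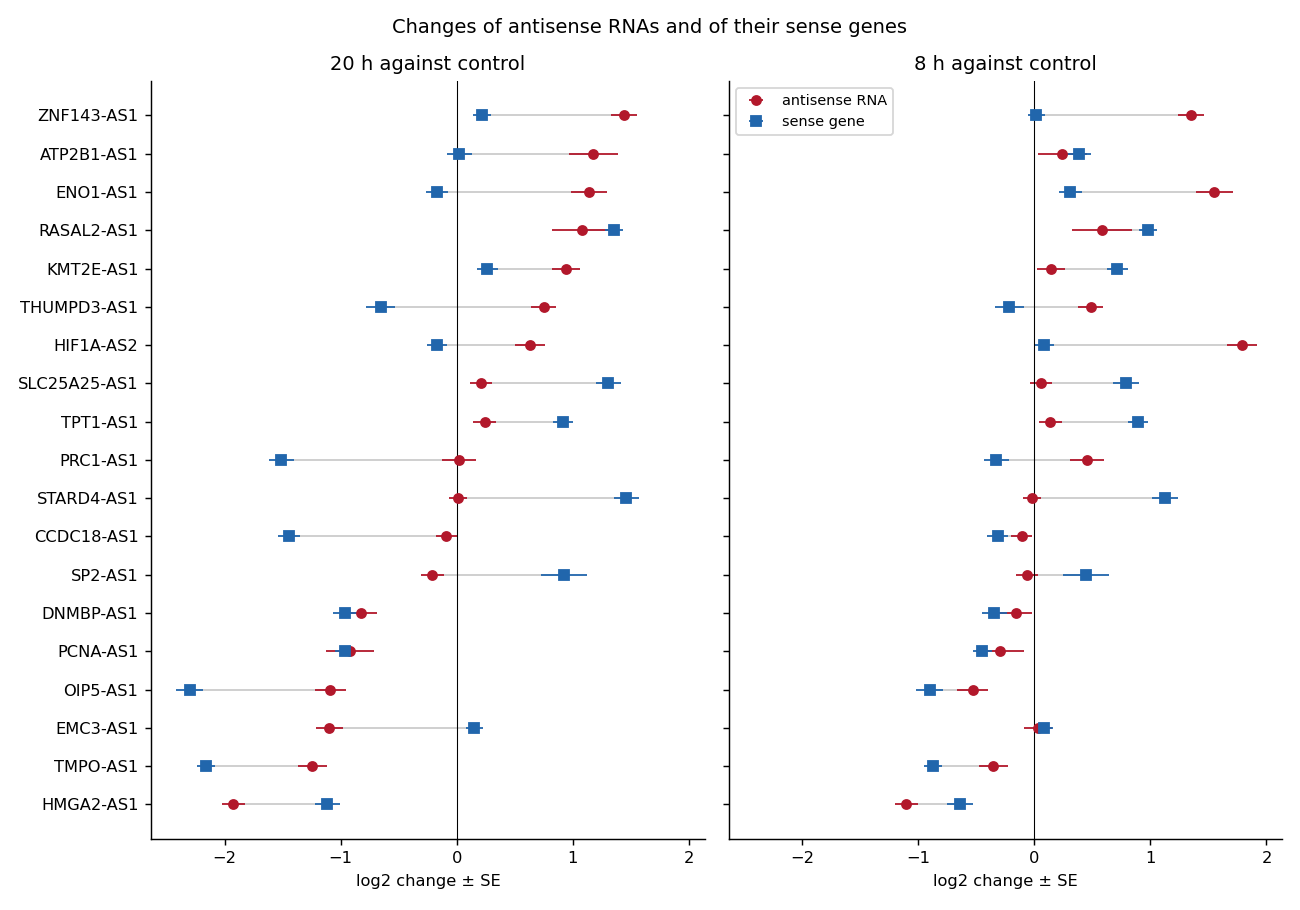
Log2 change with its SE of 19 antisense RNAs (circles) and of their sense genes (squares), at 20 h (left) and 8 h (right) against control. ZNF143-AS1, ENO1-AS1 and HIF1A-AS2 lie to the right of the sense gene at both times, PRC1-AS1, CCDC18-AS1 and STARD4-AS1 lie near 0 at 20 h while the sense genes do not, and the markers of PCNA-AS1 and PCNA overlap at 20 h.

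The arrangement of the pairs was set beside these changes. At 20 h, 10 of the 39 head-to-head members rose and 7 fell, with a median log2 change of 0.05. Of the 29 internal members 6 rose and 5 fell, and of the 28 that start beyond the sense gene's end 3 rose and 6 fell. Of the 33 members that could not be placed 4 rose and 11 fell. At 8 h the counts were 4 and 2 head-to-head, 5 and 0 internal, 3 and 2 beyond the end and 1 and 3 not placed. Between 20 h and 8 h the rises and falls were 3 and 3, 1 and 4, 0 and 7, and 2 and 9 in the same order. Of all genes 13.1% rose and 17.2% fell at 20 h, 5.93% and 6.28% at 8 h, and 8.95% and 13.6% between 20 h and 8 h, and of genes with a mean of at least 4 the shares were 20.1% and 31.6%, 10.9% and 11.3%, and 13.4% and 25.3%. ENO1-AS1, RASAL2-AS1 and ATP2B1-AS1 were among the head-to-head rises at 20 h that came from members with a group mean below 4. DNMBP-AS1 (internal) and ACTA2-AS1 (not placed) were among the falls of that kind. Such changes are partly built in by the selection, and the counts by class were not repeated without these members. No difference between classes was tested. Pearson's r between antisense and sense change at 20 h was 0.425 over 37 head-to-head pairs, 0.337 over 26 internal pairs and 0.331 over 27 pairs beyond the end, and whether these differ was not tested. Where both RNAs overlap, the signals were told apart only through the array's probe design, which the labels do not describe.

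**Figure D4:**
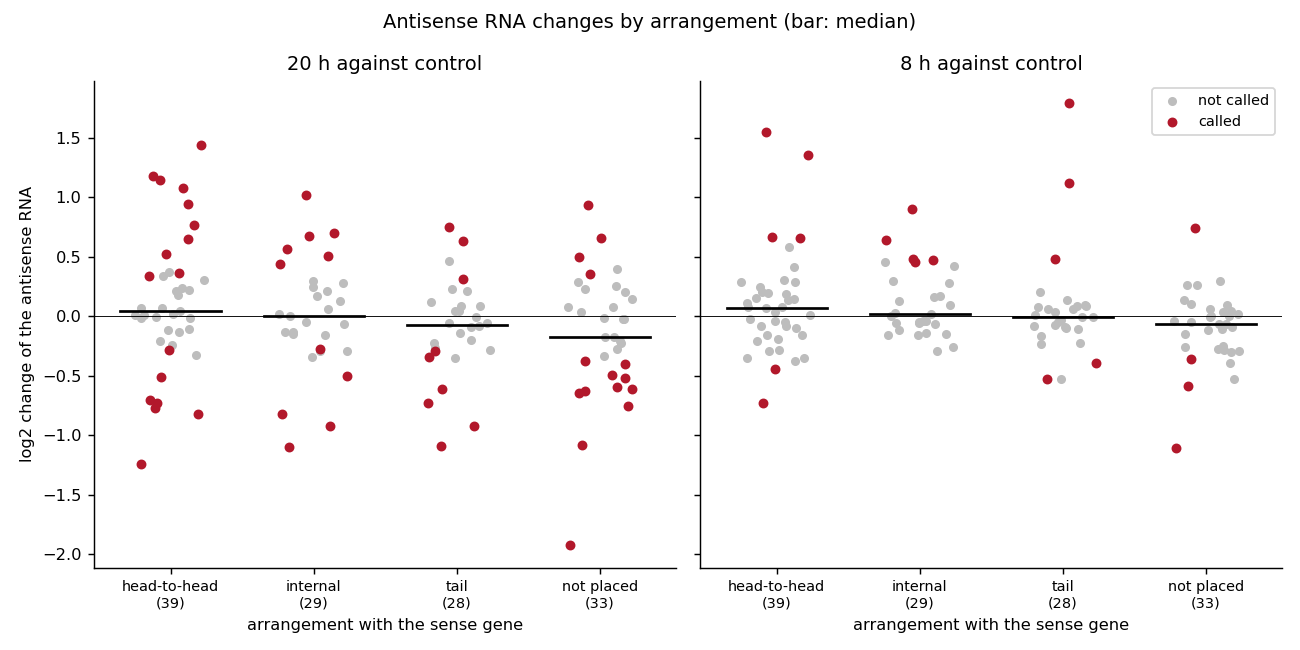
Log2 change of the antisense RNAs (vertical axis) by arrangement with the sense gene (horizontal axis, number of members in parentheses), at 20 h (left) and 8 h (right) against control; red points passed the 5% threshold and bars are medians. FAM131B-AS2, listed on the same strand as its sense gene, is not drawn. Each class held rises and falls at 20 h.

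The same arrays measured the RNA of genes whose proteins end, degrade and read antisense RNAs. Of 19 genes of the nuclear exosome and its adaptors, all with a mean of at least 4, 3 rose and 8 fell at 20 h (median log2 change -0.29), and 5 rose and 5 fell at 8 h. EXOSC9, a subunit of the exosome ring, was 5.66, 5.69 and 5.69 at 20 h, 6.33, 6.42 and 6.54 at 8 h and 6.97, 7.11 and 6.98 in untreated cells and fell by 1.34 ± 0.08 (SE, adjusted p = 1.37e-06) at 20 h. EXOSC3 and EXOSC8, further subunits of the exosome, had log2 changes of -1.21 ± 0.12 (SE, adjusted p = 4.24e-05) and -1.10 ± 0.11 (SE, adjusted p = 3.54e-05). RBM7, which links the exosome to newly made noncoding RNA, was 7.01, 6.94 and 7.14 at 20 h, 7.10, 6.97 and 7.24 at 8 h and 6.02, 5.97 and 6.14 in untreated cells, and rose by 0.99 ± 0.10 (SE, adjusted p = 2.79e-05) at 20 h, and the poly(A) polymerase gene TENT4B rose by 1.00 ± 0.09 (SE, adjusted p = 1.40e-05).

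Of 16 genes of transcript termination, 2 rose and 6 fell at 20 h and 1 rose and 6 fell at 8 h. The falls at 20 h included NCBP1 (-1.13 ± 0.10, SE, adjusted p = 1.40e-05), a subunit of the cap-binding complex, and CPSF3 (-1.36 ± 0.18, SE, adjusted p = 0.000216), the nuclease of the cleavage complex. Of 14 genes that edit, process or sense double-stranded RNA, 1 rose and 9 fell at 20 h and 1 rose and 3 fell at 8 h. EIF2AK2, the kinase PKR that responds to double-stranded RNA, was 6.89, 6.79 and 6.52 at 20 h, 7.82, 7.90 and 7.95 at 8 h and 8.40, 8.43 and 8.32 in untreated cells and fell by 1.65 ± 0.10 (SE, adjusted p = 1.52e-06) at 20 h, while AGO2, the slicer of RNA interference, rose by 1.14 ± 0.10 (SE, adjusted p = 2.00e-05). Of 15 genes of chromatin proteins that are named as partners of long noncoding RNAs, 2 rose and 10 fell at 20 h and 2 rose and 1 fell at 8 h. SUZ12 and EZH2, core subunits of a Polycomb repressive complex, had log2 changes of -1.08 ± 0.11 (SE, adjusted p = 3.17e-05) and -0.87 ± 0.08 (SE, adjusted p = 2.70e-05) at 20 h, and JARID2, an accessory subunit, rose by 1.35 ± 0.09 (SE, adjusted p = 1.76e-06). A mean of at least 4 was reached by all 16 termination genes, 12 of the 14 double-stranded RNA genes and 14 of the 15 chromatin genes. Of genes with such a mean 51.7% were called at 20 h (20.1% higher, 31.6% lower) and 22.2% at 8 h (10.9% higher, 11.3% lower). Of all genes 30.3% were called at 20 h (13.1% higher, 17.2% lower) and 12.2% at 8 h (5.93% higher, 6.28% lower). The part of the listed genes in the changes of the antisense RNAs was not tested.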

How the data were processed

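RNA of MDA-MB-231 cells was measured on 9 whole-transcript arrays, 3 per group. Per the submitters' processing notes, the authors made the deposited log2 values with RMA in Affymetrix Expression Console, 1 per probe set; versions and build are not given in the sources used here. Of 53617 probe sets, 23558 had 1 gene symbol, and the brightest probe set of each of 22109 genes was kept. The antisense genes and the gene lists were chosen with earlier results of these data known.

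Group means were fitted to all 9 arrays with limma 3.58.1 (R 4.3.3; lmFit, eBayes, two-sided) on every gene, and on the per-array antisense-minus-sense difference of all 684 pairs. Benjamini-Hochberg adjusted p-values under 0.05 were called; the fit was tested on simulated data. An exact permutation test of 3 against 3 arrays cannot go below 0.1 and was not used. With arrays there is no count depth; the number of arrays limits the precision. Start regions were read from RefSeq (GRCh38.p14) for 107 members.

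Named were the 8 brightest members, the 8 largest rises and 8 largest falls against control with groups that do not overlap (5 and 5 between 20 h and 8 h), the 5 largest called antisense-minus-sense changes each way, pairs called in opposite directions, the 3 members and 3 antisense genes nearest the level of 4, up to 4 called genes a list, and their sense genes. Alternatives were a filter at the median level, other probe-set rules, repeated quantile normalization, median centring, other variance settings, array weights, a replicate block, and leaving out arrays.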

Additional observations from a re-analysis of the deposited data

Results flagged for a closer look

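Of the 46 named antisense RNAs, 19 had a change at 20 h that differed from the change at 8 h by the test between both treated groups (limma, adjusted p under 0.05), 14 of them lower at 20 h and 5 higher. Since both changes use the same untreated arrays, the difference of the log2 changes equals the log2 change between 20 h and 8 h. Dose and time differ between these groups and cannot be told apart.

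Lower at 20 h than at 8 h were HIF1A-AS2 (-1.16), EMC3-AS1 (-1.13), ATF7-AS1 (-0.92), TMPO-AS1 (-0.89), HMGA2-AS1 (-0.82), PSMD6-AS2 (-0.81), SBF2-AS1 (-0.69), TTN-AS1 (-0.68), DNMBP-AS1 (-0.67), FGD5-AS1 (-0.65), OIP5-AS1 (-0.56), ACTA2-AS1 (-0.49), SH3BP5-AS1 (-0.47) and AFAP1-AS1 (-0.32). Of these, HIF1A-AS2 and PSMD6-AS2 were above control in both treated groups, and HMGA2-AS1, OIP5-AS1 and ACTA2-AS1 below control in both. EMC3-AS1, ATF7-AS1, TMPO-AS1, SBF2-AS1, TTN-AS1, DNMBP-AS1 and FGD5-AS1 passed the test against control at 20 h alone, and SH3BP5-AS1 and AFAP1-AS1 in neither comparison with control. Higher at 20 h were MAST4-AS1 (0.53), NPPA-AS1 (0.65), MMP25-AS1 (0.77), KMT2E-AS1 (0.80) and ATP2B1-AS1 (0.93). No outlier test was run on a single RNA within a group of 3 arrays.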

How the results depend on the processing

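Across 21 alternative settings, no named change reversed its direction while called. Of 324 called changes of named genes and pairs, 266 kept the call under every alternative tried and 58 lost it under at least 1, among them 13 without control array 3. Most counts of calls stayed within 1.5 times the reported one, with these exceptions. The 21 calls of antisense RNAs at 8 h ran between 13 and 21 when single arrays were left out (13 without control array 2), and the 28 called antisense-minus-sense changes at 8 h between 16 and 28 (16 without array 3 of the 8 h group). With the level raised to 5, which leaves 42 members and 40 pairs and so lowers every count, the antisense RNAs called were 25 at 20 h, 11 at 8 h and 14 between 20 h and 8 h. The sense genes called were then 15, 8 and 12, and the called differences 27, 14 and 12, in the same order. Repeated quantile normalization moved the share of higher calls at 8 h to 80.0%, against 66.7% as reported, and between 20 h and 8 h to 36.7%, against 20.7%. For sense genes between 20 h and 8 h it gave 42.9%, against 27.6%; the cause was not tested.

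Arrays of different groups that carry the same replicate number did not deviate together (correlations between -0.318 and 0.111), so the number does not pair them. With a replicate block, 22 antisense RNAs rose and 26 fell at 20 h, 12 rose and 6 fell at 8 h, and 15 named calls ended.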

Other observations

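Other classes of noncoding RNA were counted in the same fit, with no test of the class. Of 22 transcripts with a mean of at least 4 that are named as lying within introns of a gene or overlapping it (symbols ending in -IT or -OT and a digit), 2 rose and 12 fell at 20 h, with a median log2 change of -0.41, and 4 rose and 4 fell at 8 h. SMYD3-IT1 was 5.18, 5.02 and 5.20 at 20 h, 5.92, 5.70 and 6.11 at 8 h and 7.36, 7.15 and 7.10 in untreated cells, with no overlap between the groups, and had a log2 change of -2.07 ± 0.12 (SE, adjusted p = 9.16e-07) at 20 h. RUNX1-IT1 was 5.84, 5.71 and 5.78 at 20 h, 6.79, 7.0 and 7.14 at 8 h and 6.37, 6.45 and 6.45 in untreated cells, so that it was above control at 8 h (0.55 ± 0.10, SE, adjusted p = 0.00473) and below it at 20 h (-0.65 ± 0.10, SE, adjusted p = 0.000517). ENO1-IT1, from the same locus as ENO1-AS1, had a log2 change of -0.37 ± 0.10 (SE, adjusted p = 0.0167) at 20 h and 0.42 ± 0.10 (SE, adjusted p = 0.0221) at 8 h, while ENO1-AS1 was above control in both groups.

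Of 31 divergent transcripts (symbols ending in -DT) at that level, 10 rose and 11 fell at 20 h, and 6 rose and 3 fell at 8 h. IL6ST-DT was 4.99, 5.04 and 4.99 at 20 h, 3.84, 3.96 and 3.69 at 8 h and 3.28, 2.93 and 3.84 in untreated cells, the 20 h arrays lying above all others, and rose by 1.66 ± 0.19 (SE, adjusted p = 7.57e-05) at 20 h. Of 67 LINC genes, 11 rose and 19 fell at 20 h and 9 rose and 6 fell at 8 h. Of 18 host genes of small RNAs, 8 rose and 3 fell at 20 h and 2 rose and 0 fell at 8 h. SNHG15, which hosts a small nucleolar RNA, was 7.08, 7.04 and 7.05 at 20 h, 5.99, 5.99 and 5.82 at 8 h and 5.43, 5.68 and 5.77 in untreated cells, and rose by 1.43 ± 0.10 (SE, adjusted p = 3.38e-06) at 20 h. LINC00842 was 4.58, 4.49 and 4.50 at 20 h, 5.70, 5.92 and 5.77 at 8 h and 4.88, 4.93 and 5.02 in untreated cells, above control at 8 h (0.85 ± 0.08, SE, adjusted p = 0.000165) and below it at 20 h (-0.42 ± 0.08, SE, adjusted p = 0.0031). For comparison, 51.7% of all genes with a mean of at least 4 were called at 20 h (20.1% higher, 31.6% lower). At 8 h the share was 22.2% (10.9% higher, 11.3% lower).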
